A study of Homo sapiens with 36 samples.

Results

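The genes of the HLA class I antigen presentation pathway followed here were measured in the mRNA libraries of Caco-2 and HT-29, both human colorectal cancer lines. They were taken by symbol from the table of gene counts, in which all 9 members were found among 60591 rows: the heavy chains HLA-B, HLA-C, HLA-E and HLA-F, the light chain B2M, the peptide transporter subunits TAP1 and TAP2, the loading factor TAPBP (tapasin) and the transactivator NLRC5. All 9 passed the filter on low counts in each fit. In HT-29 an oxyquinoline derivative raised 8 of the 9 genes more than 2-fold, as it did 9.5% of all genes tested. CoCl2 raised 7 of them (17.4% of all genes), or 2 when scaled by library size alone. In Caco-2, 1 gene rose and 1 fell by that much with CoCl2 (9.13% and 14.2% of all genes), and none with the oxyquinoline derivative (4.43% and 7.27%).

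Class I molecules carry fragments of a cell's own proteins to its surface, where CD8 T cells read them and natural killer cells check for their presence. Peptides cut by the proteasome enter the endoplasmic reticulum through the TAP1 and TAP2 dimer, tapasin holds an empty heavy chain and its B2M partner beside the transporter, and the loaded complex leaves for the surface. HLA-B and HLA-C are classical heavy chains, HLA-E presents mainly leader peptides of other class I chains to natural killer cell receptors, and HLA-F is a non-classical chain. NLRC5 drives class I promoters together with RFX factors bound there, and interferons raise most genes of the pathway, in intestinal epithelium as in other tissues.

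The experiment compared 3 groups in each line, with 3 biological replicates per group and thus 18 mRNA libraries. CoCl2 was given at 300 µM for 24 h, and the oxyquinoline derivative 4896-3212 (OD) at 5 µM for 24 h, both as chemical activators of the hypoxia-inducible factor (HIF) pathway. Control medium held 0.5 µl DMSO per ml, as did the OD medium. Per the labels the CoCl2 stock was made in water, whereas the study's methods give the CoCl2 cells solvent too, so a part of DMSO in the contrast of CoCl2 with control was not tested. Caco-2 cells had been kept under differentiating conditions for 21 days and the labels give no such step for HT-29, so that line and culture state cannot be told apart. Each is a single established tumour line.

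Libraries held 12925719 to 22332639 counts. Replicates differed by more than counting error (chi-square over degrees of freedom 1.96 to 12.6), and no library appeared to have been deposited more than once. All 8 epithelial markers examined, among them EPCAM and KRT8, were above 10 counts in every library. The 10 leukocyte and stromal markers summed to 22.2 to 44.5 CPM in Caco-2 and 3.21 to 10.2 CPM in HT-29. CPM are counts brought to a common library size, here corrected by TMM (trimmed mean of M values) factors computed inside each line. The mean TMM factor was 1.12, 0.894 and 1.00 in control, CoCl2 and OD libraries of Caco-2 and 1.19, 0.770 and 1.09 in those of HT-29. On library sizes alone the genome-wide median log2 change shifted by -0.321 (Caco-2, CoCl2), -0.153 (Caco-2, OD), -0.632 (HT-29, CoCl2) and -0.136 (HT-29, OD). A gene was called when edgeR's quasi-likelihood test gave a Benjamini-Hochberg adjusted p (FDR) under 0.05 and its log2 fold change lay above 1 or below -1. In mixed RNA of a whole culture, fewer cells of a kind and less RNA per cell cannot be told apart.

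Of the genes, 7 lie on chromosome 6 in GENCODE v44 on GRCh38. HLA-F spans chr6:29722775-29738528 and HLA-E chr6:30489509-30494194 on the plus strand. HLA-C spans chr6:31268749-31272130, HLA-B chr6:31353872-31367067, TAP2 chr6:32821833-32838739, TAP1 chr6:32845209-32853816 and TAPBP chr6:33299694-33314284, all on the minus strand. B2M is at chr15:44711358-44718851 and NLRC5 at chr16:56989485-57083531, both on the plus strand. Reads were 75 bases long, and the share of 75-base stretches of the main transcript that also occur in transcripts of other annotated genes was therefore computed. It was 0% for B2M and for NLRC5, 1.98% for HLA-C, 2.3% for HLA-E, 15% for HLA-B, 19.6% for TAP1, 29% for HLA-F, 35% for TAP2 and 39.2% for TAPBP. Among the genes that shared most were HLA-F-AS1, annotated opposite HLA-F, PSMB8-AS1, annotated opposite TAP1, and ENSG00000250264, which shares stretches with both TAP1 and TAP2. The sources used here do not say whether strand was used in counting, so reads of HLA-F and of its antisense partner may not be separable, and the values of HLA-F, TAP1, TAP2, TAPBP and HLA-B carry that uncertainty.

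Promoters of 7 of the 9 genes could be matched in RefSeq (GRCh38.p14), all but HLA-E and NLRC5. The 250 bases before each start were searched on both strands for short motifs of the factors known for these genes. These were the core of the interferon-stimulated response element (ISRE, GAAA, any 2 bases, GAAA), which IRF factors bind, the GAS element (TTCNNNGAA), the kappa B site (GGG, any 5 bases, CC), the HIF core (ACGTG and GCGTG), the CCAAT box and the CRE core (TGACG). A shorter ISRE core, GAANNGAAA, was added after the sequences had been seen, and it may overlap the longer one. Promoters of 5 genes are shown, picked with their motifs and the answers of their genes to the 2 agents known. A link between the place of a motif and the response of its gene was not tested. Each runs 5′ to 3′ on the strand of its gene and ends at the base before the start, and capitals mark either ISRE core on either strand. The windows are chr6:31357180-31357429 for HLA-B, chr6:29723184-29723433 for HLA-F, chr15:44711267-44711516 for B2M, chr6:32853705-32853954 for TAP1 and chr6:32838740-32838989 for TAP2.
HLA-B: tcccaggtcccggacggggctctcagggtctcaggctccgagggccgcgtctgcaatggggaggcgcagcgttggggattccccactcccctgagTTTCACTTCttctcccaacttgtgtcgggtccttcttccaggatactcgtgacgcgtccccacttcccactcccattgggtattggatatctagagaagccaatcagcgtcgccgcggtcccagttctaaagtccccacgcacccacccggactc
HLA-F: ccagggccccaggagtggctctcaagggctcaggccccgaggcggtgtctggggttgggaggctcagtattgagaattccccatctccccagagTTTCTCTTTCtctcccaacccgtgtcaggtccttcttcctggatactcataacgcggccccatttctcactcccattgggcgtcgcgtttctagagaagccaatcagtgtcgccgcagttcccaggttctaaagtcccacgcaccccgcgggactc
B2M: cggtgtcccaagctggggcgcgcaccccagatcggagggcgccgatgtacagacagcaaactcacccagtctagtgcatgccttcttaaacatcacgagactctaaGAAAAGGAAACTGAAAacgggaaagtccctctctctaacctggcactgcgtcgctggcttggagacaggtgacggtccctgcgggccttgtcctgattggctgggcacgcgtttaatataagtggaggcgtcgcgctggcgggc
TAP1: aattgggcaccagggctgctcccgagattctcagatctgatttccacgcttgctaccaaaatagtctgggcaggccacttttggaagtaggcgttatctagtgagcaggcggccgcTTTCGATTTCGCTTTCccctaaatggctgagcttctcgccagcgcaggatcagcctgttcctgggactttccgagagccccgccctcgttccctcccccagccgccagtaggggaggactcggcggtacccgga
TAP2: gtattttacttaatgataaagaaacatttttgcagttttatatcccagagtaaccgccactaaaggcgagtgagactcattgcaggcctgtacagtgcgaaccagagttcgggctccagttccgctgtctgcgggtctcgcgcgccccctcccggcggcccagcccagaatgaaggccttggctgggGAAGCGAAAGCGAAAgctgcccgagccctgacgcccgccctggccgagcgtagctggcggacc
The 7 matched genes have 8 windows, as TAP1 has 2 starts. An ISRE core of either length was in 7 of the 8, against 9.08% of 35116 RefSeq promoter windows of the same length. In HLA-B and HLA-C the only match was the shorter form, which was added after these sequences had been seen. The share for either length is therefore a description and no test. The longer form was present in 5 of the 8 windows (HLA-F, B2M, TAP1, TAP2 and TAPBP) and in 3.02% of all windows. The shorter form was present in HLA-B, HLA-C and TAP2 and in 6.56% of all windows. In the heavy chain genes the match began 151 to 156 bases before the start, in B2M at 144 and 138, in TAP1 at 134 and 128, in TAP2 at 63 and 58 and in TAPBP at 20 and 14. The windows also held kappa B sites in all but HLA-F (54.4% of all windows), CCAAT boxes in all but TAP2 and TAPBP (32% of all windows), and CRE cores in HLA-B, HLA-C, B2M and TAP2 (21.2%). A GAS element was found only before a second, downstream start of TAP1 (6.57% of all windows). Of the HIF cores, ACGTG was in none of the windows (18.5% of all windows) and GCGTG in those of HLA-B, HLA-F, B2M and TAP1 (32.2%). These matches are letters in a window, and binding was not measured.

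**Figure D1:**
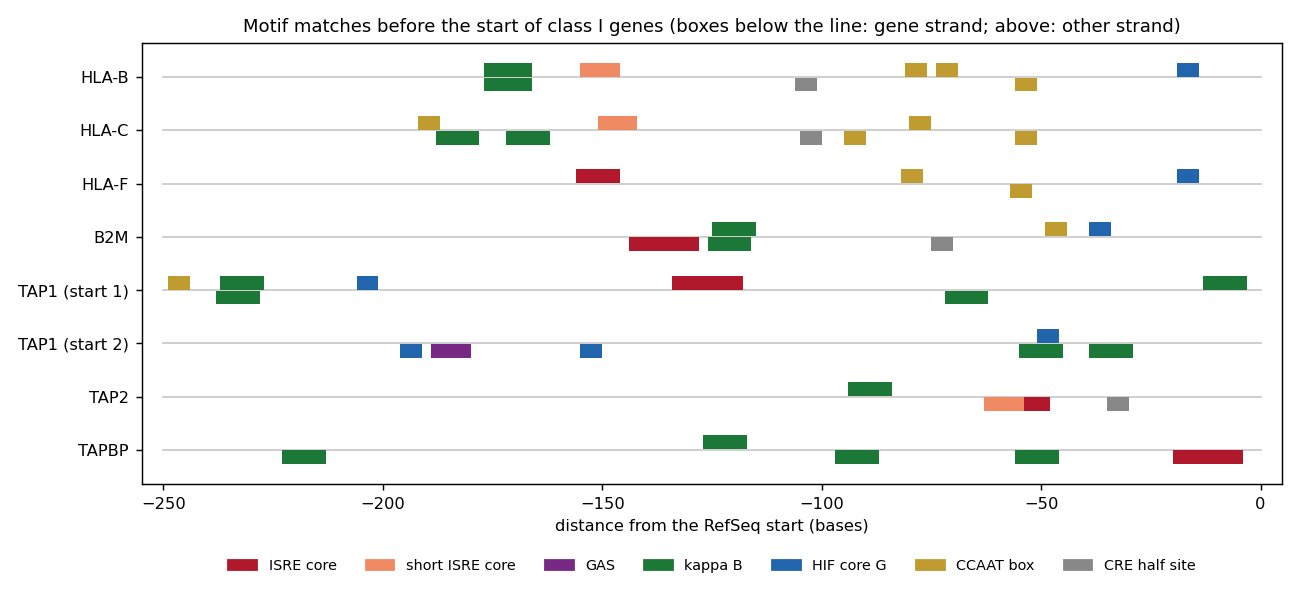
Motif matches in the 250 bases before the start of 7 class I genes, TAP1 with both of its RefSeq starts. The horizontal axis is the distance from the start in bases; boxes below a line lie on the strand of the gene and boxes above it on the other strand. ISRE cores sit 128 to 156 bases before the start in the heavy chain genes, B2M and the upstream TAP1 start, and within 63 bases of it in TAP2 and TAPBP.

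Levels of different genes were compared per length, as RPKM (reads per kilobase at a common library size) on the gene lengths behind the authors' table. Those lengths were 6047 bases for B2M and 2494 for HLA-C, whose main transcripts have 943 and 1542 bases. For TAP1 and TAP2 they were 4780 and 6347 bases, against 2685 and 5643 in the main transcripts. The order between genes holds for the authors' lengths only and was not computed on main transcripts. In untreated HT-29 the order ran from B2M at 80.9 ± 1.61 RPKM (SD, n = 3 here and below) through HLA-E at 42.7 ± 1.70, HLA-C at 27.4 ± 2.05, TAPBP at 13.8 ± 1.17, HLA-B at 4.66 ± 0.446, TAP2 at 2.84 ± 0.461, TAP1 at 2.21 ± 0.210 and HLA-F at 0.692 ± 0.194 to NLRC5 at 0.197 ± 0.0195. Neighbours in that order did not overlap between libraries. In untreated Caco-2 HLA-C led with 63.7 ± 1.62 RPKM, followed by B2M at 61.3 ± 0.631 and HLA-E at 43.5 ± 1.16, and HLA-F (0.335 ± 0.0541) and NLRC5 (0.115 ± 0.0210) again closed the order. HLA-F and NLRC5 are listed at 0 in every Caco-2 library of the authors' RPKM table, while the counts held 7 to 37 reads of HLA-F and 5 to 25 of NLRC5 per Caco-2 library. The order among heavy chains thus differed between the lines at rest, with HLA-E above HLA-C in HT-29 and HLA-C above HLA-E in Caco-2. Counts of HLA-E over HLA-C gave a ratio of 1.82 ± 0.0678 in HT-29 control libraries and 0.796 ± 0.00263 in those of Caco-2.

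Tested between the untreated lines over all 18 libraries, 2 members were called higher in HT-29 and 1 lower, against 21.6% and 24.2% of all 17921 genes tested. TAP1 was 2.96-fold higher in HT-29 (log2 difference 1.57 ± 0.16 SE, FDR 1.46e-10, edgeR) and HLA-F 2.17-fold higher (1.12 ± 0.23, FDR 6.16e-05, edgeR). Without HT-29 control replicate 2 the difference for HLA-F was 0.90 and was no longer called. HLA-C was 2.18-fold lower in HT-29 (-1.13 ± 0.07, FDR 1.61e-16, edgeR). Reads of both lines were mapped to the same reference genome (GRCh38.p13), and the HLA alleles of each line were not examined. A part of mapping in the differences of heavy chain level, order and ratio between the lines was not tested. HLA-E (0.06, 95% interval -0.06 to 0.19) and TAPBP (0.13, -0.02 to 0.27) did not pass the test between the lines.

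**Figure D2:**
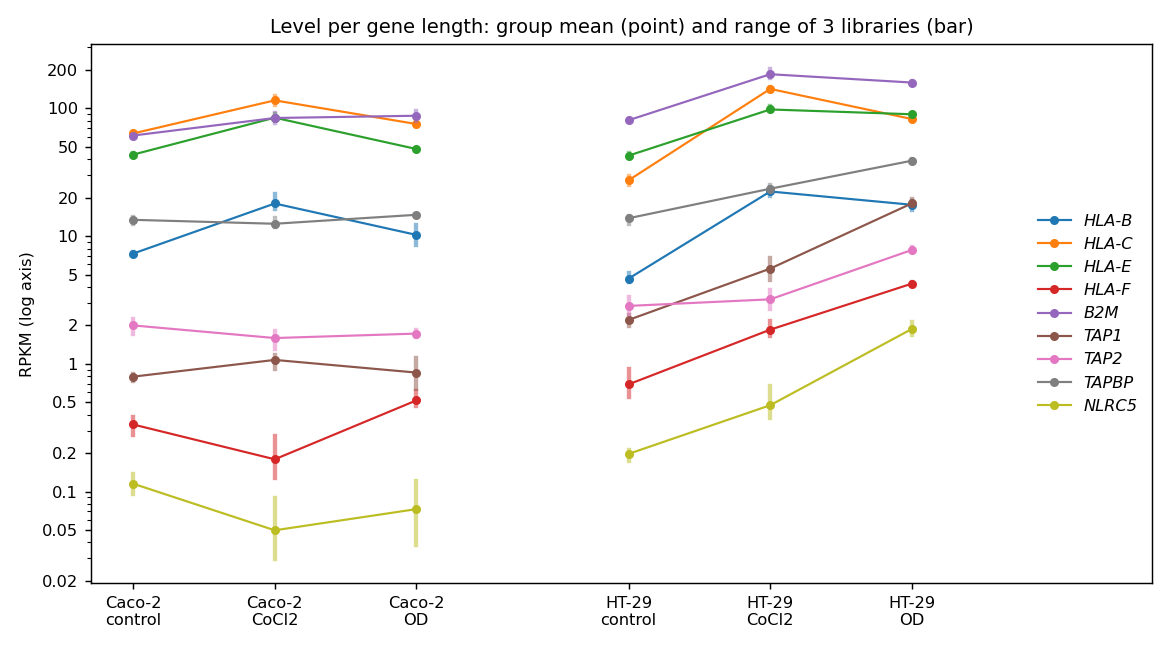
RPKM of each gene (log axis) in the 6 groups, as the mean of 3 libraries (points) with the range of the libraries (bars). The order between genes depends on the gene lengths behind the authors' table. In HT-29 HLA-C crosses HLA-E with CoCl2, and TAP1 moves from 2.21 RPKM in control, below TAP2, to 18.04 with OD, level with HLA-B.

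OD raised the members in HT-29, with the highest log2 changes for the transactivator NLRC5 and the transporter subunit TAP1. Of the 9 members, 8 were called higher and none lower, where 9.5% of all 15812 genes tested were called higher and 7.57% lower. The remaining one, B2M, rose by a log2 of 0.98 and stayed under the fold limit. By FDR alone all 9 were higher, against 34.7% of all genes higher and 34% lower. The median over the 9 members was 1.59 on the log2 scale, and that of all genes 0.01. Over all genes, calls were 1502 higher and 1197 lower, or 1225 and 1596 on library sizes alone.

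NLRC5 stood at 2.58, 2.52 and 2.14 CPM in the control libraries of HT-29 and at 20.6, 26.1 and 22.1 CPM with OD. The groups lay far apart, and the lowest OD library held several times the level of the highest control. The change was 9.62-fold (log2 3.27 ± 0.15 SE, FDR 3.57e-16, edgeR). It rested on 40 to 57 counts per control library and 399 to 448 per OD library.

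Both transporter subunits rose, TAP1 more than TAP2. TAP1 was at 9.49, 11.5 and 10.7 CPM in control and at 82.7, 94.0 and 82.0 CPM with OD. That is 8.12-fold (3.02 ± 0.10, FDR 8.35e-20, edgeR). TAP2 was at 15.6, 21.3 and 17.3 CPM in control and at 47.4, 52.5 and 48.4 CPM with OD, without overlap. Its change was 2.73-fold (1.45 ± 0.09, FDR 1.1e-13, edgeR). Within libraries the ratio of TAP1 to TAP2 counts moved from 0.589 ± 0.0431 in control to 1.74 ± 0.0486 with OD. Per length, on the lengths behind the authors' table, TAP1 reached 18.04 ± 1.40 RPKM, which overlapped HLA-B at 17.6 ± 1.32 RPKM.

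Among the heavy chains HLA-F changed most and HLA-E least. HLA-F was at 2.32, 3.88 and 2.63 CPM in control and at 18.3, 18.6 and 17.3 CPM with OD. The groups were separate and the change 6.14-fold (2.62 ± 0.13, FDR 1.35e-15, edgeR). The antisense gene HLA-F-AS1, which shares sequence with it, rose in the same comparison by 3.16 ± 0.14 (FDR 1.57e-16, edgeR), and its part in the HLA-F counts was not tested. HLA-B was at 13.3, 15.7 and 13.4 CPM in control and at 49.0, 56.8 and 54.4 CPM with OD, a 3.78-fold rise (1.92 ± 0.08, FDR 1.15e-17, edgeR). HLA-C went from 62.9, 73.1 and 69.0 CPM to 205, 204 and 209 CPM, a 3.01-fold rise (1.59 ± 0.05, FDR 2.01e-19, edgeR). HLA-E, the chain read by natural killer cell receptors, went from 119, 129 and 124 CPM to 253, 267 and 265 CPM. Its 2.11-fold rise (1.07 ± 0.05, FDR 1.86e-16, edgeR) lay near the fold limit and was 0.94, not called, on library sizes alone.

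TAPBP and B2M rose as well, from much higher starting levels than TAP1. TAPBP moved from 72.9, 72.8 and 62.7 CPM to 196, 204 and 188 CPM, a 2.83-fold rise (1.501 ± 0.06, FDR 6.29e-18, edgeR). B2M, the chain shared by all class I molecules, moved from 480.5, 499.6 and 487 CPM to 946, 990.3 and 956 CPM. The 1.97-fold rise had an FDR of 3.74e-15 (edgeR) and a 95% interval of 0.87 to 1.09 on the log2 scale, which spans the fold limit. For all 9 genes the OD libraries lay above every control library, as they did for 35.6% of all genes tested, while 35.5% lay below.

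**Figure D3:**
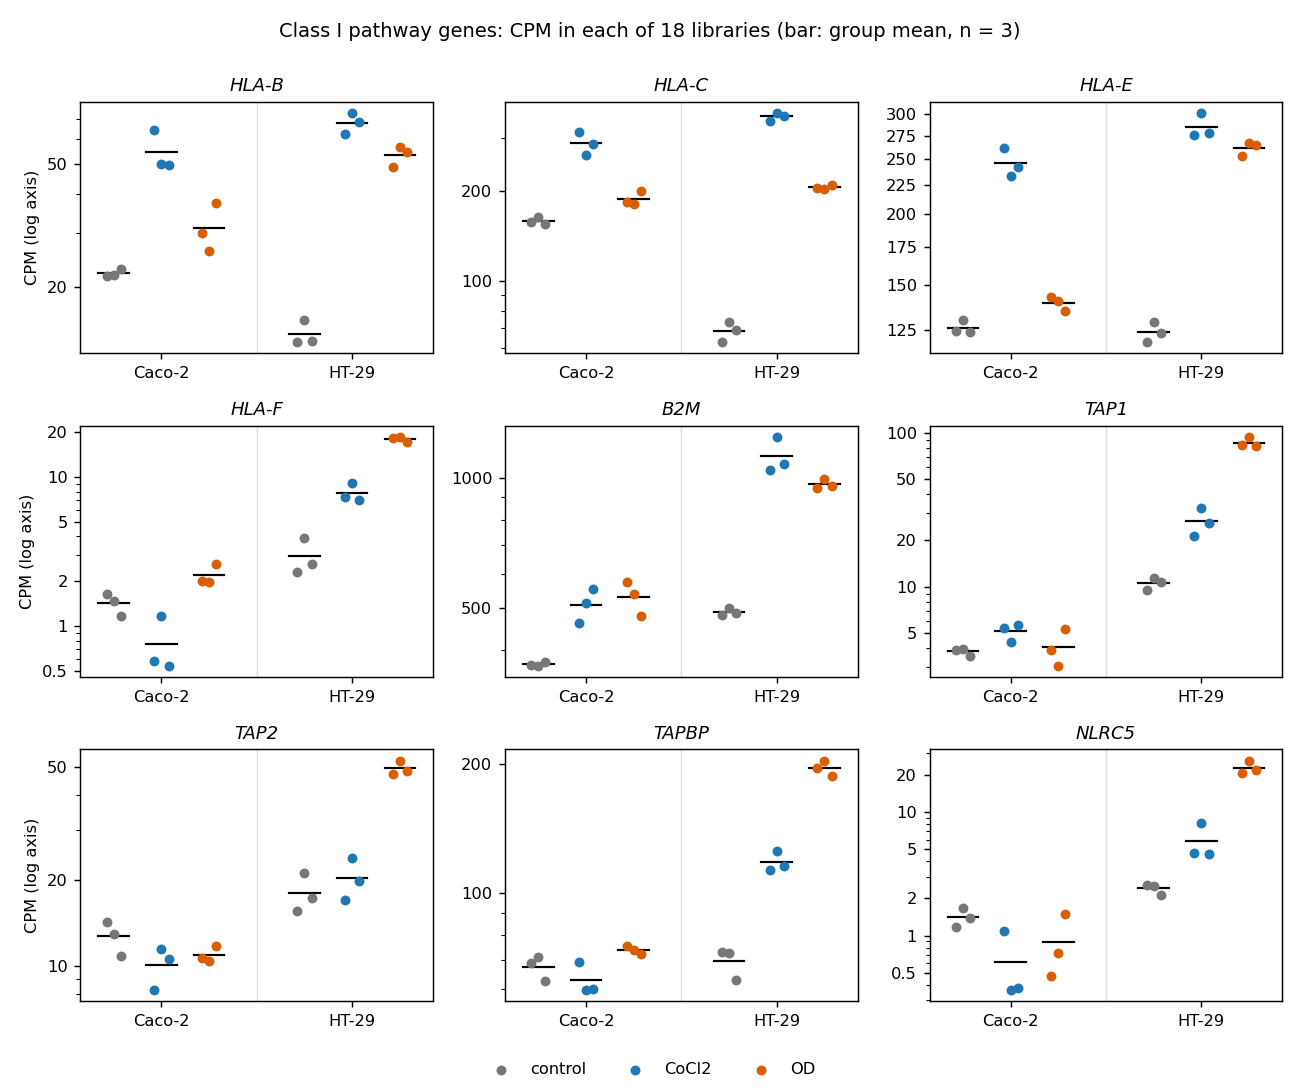
CPM of each of the 9 genes (log axis) in the 18 libraries, by line and group; each point is a library and each bar the mean of 3. In HT-29 every OD library lies above every control library for all 9 genes; for TAP2 the CoCl2 and control libraries of HT-29 overlap.

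Among the members in HT-29, CoCl2 gave the highest log2 changes for HLA-C and HLA-B, and lower ones for TAP1, TAP2 and NLRC5 than OD gave. Of the 9 members, 7 were called higher and none lower, where 17.4% of all genes tested were called higher and 23.9% lower. The median of the members was 1.31 and that of all genes -0.03. Over all genes, calls were 2749 higher and 3775 lower, or 1295 and 6250 on library sizes alone. By FDR alone 8 members were higher and none lower (40.7% and 42.2% of all genes), and the CoCl2 libraries lay above every control library for 8 members (40.5% of all genes above, 42.6% below). On library sizes alone 2 members, HLA-B and HLA-C, remained called.

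HLA-C reached 343, 364 and 357 CPM with CoCl2, from the control levels given above, and thereby passed HLA-E. The change was 5.18-fold (2.37 ± 0.05, FDR 6.61e-24, edgeR). HLA-B reached 62.4, 73.0 and 68.3 CPM, 4.82-fold over control (2.27 ± 0.08, FDR 5.6e-20, edgeR). The ratio of HLA-E to HLA-C counts fell to 0.804 ± 0.0254, near that of untreated Caco-2.

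The other heavy chains and the light chain changed by lesser amounts. HLA-E rose to 276, 302 and 278 CPM (1.2 ± 0.05, FDR 4.45e-18, edgeR) and HLA-F to 7.39, 9.20 and 7.08 CPM (1.43 ± 0.16, FDR 4.31e-09, edgeR). B2M rose to 1042, 1241 and 1077 CPM, a 2.29-fold change (1.196 ± 0.05, FDR 1.32e-17, edgeR). On library sizes alone the log2 changes of these 3 genes were 0.57, 0.80 and 0.56.

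The transporter subunits parted with CoCl2. TAP1 was at 21.5, 32.4 and 25.9 CPM, 2.52-fold over control (1.33 ± 0.11, FDR 1.98e-11, edgeR; 0.70 on library sizes alone). TAP2 was at 17.1, 23.9 and 19.9 CPM and overlapped its control libraries. Its log2 difference was 0.17 (95% interval -0.04 to 0.39, FDR 0.126, edgeR), and it was -0.46 on library sizes alone. The ratio of TAP1 to TAP2 counts was 1.3 ± 0.049, between those of control and OD.

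TAPBP was at 113, 126 and 116 CPM with CoCl2, a rise of 0.77 ± 0.06 on the log2 scale (FDR 3.88e-12, edgeR) that stayed under the fold limit. Over 14 alternative settings its log2 change ranged from 0.14 to 0.813, so the size of the rise depended on the processing. NLRC5 was at 4.63, 8.16 and 4.61 CPM, 2.47-fold over control (1.31 ± 0.20, FDR 1.61e-06, edgeR). Replicate 2 was the highest library there, and without it the change was 0.97 and was not called. On library sizes alone it was 0.67.

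**Figure D4:**
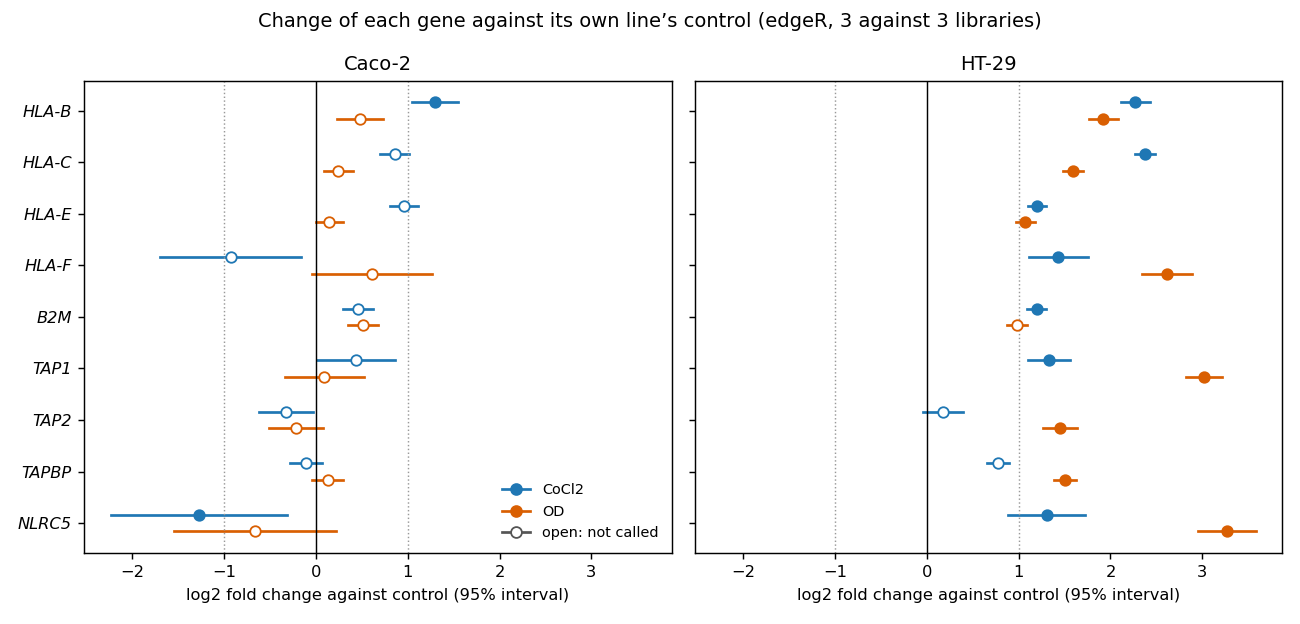
Log2 fold change of each gene against the control of its line, with its 95% interval, for CoCl2 and OD (edgeR, 3 against 3 libraries); filled points were called and open points were not, and dotted lines mark the fold limit. In HT-29 the points of OD lie to the right of those of CoCl2 for NLRC5, TAP1, TAP2, TAPBP and HLA-F, and to the left for HLA-B and HLA-C; in Caco-2 HLA-B and NLRC5 alone are filled, both for CoCl2.

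The agents were then set against each other directly in HT-29, each at its single dose and at 24 h. With CoCl2, 4 members were called lower than with OD and none higher, where 19.2% of all genes tested were lower and 10.8% higher (1702 higher and 3032 lower, or 783 and 5279 on library sizes alone). These were NLRC5 (3.89-fold lower, log2 -1.96 ± 0.14, FDR 1.41e-12), TAP1 (3.22-fold, -1.69 ± 0.09, FDR 1.39e-15), TAP2 (2.42-fold, -1.28 ± 0.09, FDR 2.09e-12) and HLA-F (2.28-fold, -1.19 ± 0.12, FDR 9.96e-10), all by edgeR. TAPBP was lower by a log2 of 0.73 with FDR 7.88e-12, under the fold limit, and was called at -1.22 on library sizes alone.

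HLA-C went the other way and was 1.72-fold higher with CoCl2 (0.78 ± 0.05, FDR 7.93e-14, edgeR), a difference that kept its sign on library sizes alone at 0.29. HLA-B (0.35 ± 0.07), B2M (0.22 ± 0.05) and HLA-E (0.13 ± 0.05) were also above OD, but these 3 turned to -0.15, -0.28 and -0.37 on library sizes alone, so that the agent with more of them depended on the scaling. By FDR alone 4 members were higher with CoCl2 and 5 lower, against 37.1% and 40.6% of all genes. Both contrasts with control use the same control libraries.

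In Caco-2 with CoCl2 the shares of members called were near those of all genes. By FDR alone 4 members were higher (HLA-B, HLA-C, HLA-E and B2M) and 2 lower (NLRC5 and HLA-F), against 31.6% and 33.1% of all genes, and 5 lay above every control library and 2 below (33.7% and 35.2%). With the fold limit, 1 member was called higher and 1 lower, where 9.13% of all 16034 genes tested were called higher and 14.2% lower (1464 and 2283, or 870 and 3546 on library sizes alone). The median of the members was 0.44 and that of all genes -0.03. HLA-B was at 21.7, 21.9 and 22.9 CPM in control and at 64.4, 50.1 and 49.5 CPM with CoCl2, a 2.46-fold rise (1.298 ± 0.12, FDR 1.1e-09, edgeR). It was 0.98 and not called on library sizes alone.

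HLA-C and HLA-E passed the test in Caco-2 and stayed just under the fold limit. HLA-C went from 158, 163 and 156 CPM to 314, 264 and 288 CPM with CoCl2 (0.86 ± 0.08, FDR 6.01e-10, edgeR). HLA-E went from 125, 130.3 and 124 CPM to 262, 234 and 242 CPM (0.96 ± 0.07, FDR 2.71e-11, edgeR), and it was called in the fit without CoCl2 replicate 2, at 1.00. B2M was at 369.8, 368 and 375 CPM in control and 461, 513 and 552 CPM with CoCl2 (0.46 ± 0.08, FDR 2.22e-05, edgeR). The lowest log2 changes over 14 alternative settings were 0.539 for HLA-C, 0.639 for HLA-E and 0.135 for B2M. HLA-C and HLA-E kept an FDR under 0.05 in all of them, and B2M did not.

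The least abundant members were lower with CoCl2 in Caco-2, on few reads. NLRC5 was at 1.16, 1.68 and 1.39 CPM in control and at 1.08, 0.363 and 0.379 CPM with CoCl2, which correspond to 20, 25 and 20 counts and to 13, 5 and 7 counts. The 2.42-fold decrease (-1.27 ± 0.46, FDR 0.0192, edgeR) was lost when control replicate 2, CoCl2 replicate 2 or CoCl2 replicate 3 was left out, at -1.13, -1.03 and -0.98. HLA-F held 28, 22 and 17 counts in control and 7, 16 and 10 with CoCl2 (-0.93 ± 0.37, FDR 0.0323, edgeR). It was not called here, but it was on library sizes alone (-1.24), without control replicate 3 (-1.04) and without CoCl2 replicate 2 (-1.34). Leaving out any other of the 6 libraries raised its FDR above 0.05, with the smallest change, -0.68 (FDR 0.148, edgeR), without CoCl2 replicate 3, and DESeq2 did not pass it either. In the same libraries HLA-F-AS1 was higher by 1.27 ± 0.20 (FDR 5.58e-06, edgeR).

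TAP1 with CoCl2 was at 4.36 to 5.63 CPM against 3.53 to 3.96 CPM in control (0.44, 95% interval 0.01 to 0.86, FDR 0.0649, edgeR). TAP2 was at 8.25 to 11.5 CPM against 10.9 to 14.3 CPM (-0.32, -0.62 to -0.03, FDR 0.0515, edgeR). TAPBP was at 59.7 to 69.2 CPM against 62.4 to 71.2 CPM (-0.11, -0.28 to 0.07, FDR 0.268, edgeR). None of these 3 passed the test in the main fit, although their intervals do not show that they stayed the same. Over 14 alternative settings TAP1 ranged from 0.115 to 0.547, TAP2 from -0.645 to -0.204 and TAPBP from -0.427 to -0.0642. Whether each of them had an FDR under 0.05 depended on the setting.

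OD changed no member of the pathway past the fold limit in Caco-2, where 4.43% of all genes tested were called higher and 7.27% lower (711 and 1165, or 500 and 1644 on library sizes alone). At an FDR under 0.05 alone, 3 members were higher and none lower, against 25.7% and 24.7% of all genes, and the OD libraries of 6 members lay above every control library and those of none below (29.6% and 29.8%). B2M was at 573, 538 and 479 CPM (0.51 ± 0.08, FDR 8.27e-06, edgeR), HLA-B at 29.9, 26.1 and 37.3 CPM (0.48 ± 0.12, FDR 0.00195, edgeR) and HLA-C at 183, 180.5 and 201 CPM (0.24 ± 0.08, FDR 0.00991, edgeR). At an unadjusted p under 0.05 the same 3 genes passed, and DESeq2 called no member either. HLA-C ranged from 0.092 to 0.279 over 14 alternative settings and did not keep an FDR under 0.05 in all of them.

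NLRC5 was at 0.471, 0.721 and 1.48 CPM with OD (-0.67, 95% interval -1.55 to 0.21, FDR 0.198, edgeR), and it was called lower, at -1.21, in the fit without OD replicate 3, its highest library. TAP1, raised 8.12-fold by OD in HT-29, was at 3.90, 3.06 and 5.29 CPM in Caco-2 (0.09, -0.34 to 0.53). It overlapped its control libraries.

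Set against each other in Caco-2, CoCl2 gave 1 member called lower than OD and none called higher, where 6.44% of all genes were lower and 5.21% higher (835 higher and 1033 lower, or 602 and 1524 on library sizes alone). HLA-F was at 0.583, 1.16 and 0.541 CPM with CoCl2 and at 2.02, 1.98 and 2.61 CPM with OD, a 2.90-fold difference (-1.54 ± 0.35, FDR 0.000804, edgeR) that was called in all 12 alternatives in which the gene was tested. HLA-B (0.81 ± 0.12, FDR 2.95e-06), HLA-E (0.81 ± 0.07, FDR 1.45e-09) and HLA-C (0.62 ± 0.08, FDR 3.54e-07) were higher with CoCl2 by edgeR, under the fold limit. By FDR alone 3 members were higher with CoCl2 and 2 lower (24.4% and 25.2% of all genes). B2M (-0.06, 95% interval -0.22 to 0.10), TAP1 (0.34, -0.08 to 0.77), TAP2 (-0.11, -0.41 to 0.19) and NLRC5 (-0.61, -1.63 to 0.42) did not pass.

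Whether the lines answered differently was tested as an interaction over all 18 libraries, as the log2 change in HT-29 less that in Caco-2. For OD, 7 members were called with the larger value in HT-29 and none with the larger in Caco-2, where 8.96% and 6.24% of 17921 genes were. The median over the members was 1.42 and that of all genes 0.01. The difference was 3.91 ± 0.43 for NLRC5 (FDR 4.33e-09, edgeR), 2.92 ± 0.24 for TAP1 (FDR 3.62e-12, edgeR) and 1.99 ± 0.32 for HLA-F (FDR 3.26e-06, edgeR). It lay between 1.33 and 1.65 for TAP2, HLA-B, TAPBP and HLA-C. HLA-E (0.91 ± 0.09, FDR 1.41e-10, edgeR) and B2M (0.45 ± 0.10, FDR 0.000366, edgeR) differed by less than the fold limit.

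For CoCl2, 3 members were called with the larger value in HT-29 and none with the larger in Caco-2, where 7.79% and 13.8% of all genes were (1396 higher and 2479 lower, or 1005 and 3319 on library sizes alone). These were NLRC5 (2.48 ± 0.48, FDR 4.78e-05), HLA-F (2.26 ± 0.37, FDR 4.38e-06) and HLA-C (1.41 ± 0.09, FDR 2.56e-14), all by edgeR. HLA-E, which rose with CoCl2 in both lines, gave 0.13 (95% interval -0.04 to 0.31, FDR 0.21, edgeR). That value became -0.07 on library sizes alone. TAP2 gave 0.39 (0.02 to 0.76, FDR 0.0785, edgeR) and did not pass.

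Other genes of the pathway were counted in lists that had been set by function. Values on library sizes alone are not given for these genes. With CoCl2 in HT-29 that scaling shifted the genome-wide median by -0.632, so calls of list genes near the fold limit may depend on it. Of 11 genes for peptide loading and trimming, 3 were called higher with CoCl2 in HT-29 (17.4% of all genes) and none with OD (9.5%). None was called in Caco-2 with CoCl2 (9.13% of all genes higher, 14.2% lower) or OD (4.43% and 7.27%). The 3 were BCAP31, a membrane protein of the endoplasmic reticulum involved in export of class I molecules (1.84 ± 0.05, FDR 5.18e-23), and the chaperones CANX (1.16 ± 0.04, FDR 3.03e-19) and CALR (1.04 ± 0.05, FDR 1.02e-16), by edgeR. The HT-29 median of the list was 0.80 for CoCl2 and 0.59 for OD, and the Caco-2 median 0.28 and 0.20.

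The proteasome list held different called genes under the 2 agents in HT-29, apart from PSMB9, which both raised. With OD, 3 of 10 genes were called higher and none lower (9.5% and 7.57% of all genes). They were the inducible catalytic subunits of the immunoproteasome: PSMB9 (3.25 ± 0.18, FDR 8.52e-15), PSMB8 (1.09 ± 0.07, FDR 4.43e-13) and PSMB10 (1.06 ± 0.10, FDR 5.11e-10), by edgeR. With CoCl2, 5 were called higher and none lower (17.4% and 23.9% of all genes). These included the constitutive subunits PSMB7 (2.24 ± 0.05) and PSMB6 (2.01 ± 0.06), the assembly factor POMP (1.96 ± 0.06) and PSMB5 (1.75 ± 0.05), with FDR from 1.78e-24 to 3.72e-21 (edgeR), and PSMB9 (1.31 ± 0.24, FDR 2.19e-05, edgeR). Between the agents, 4 of the 10 were called higher with CoCl2 and 2 lower (10.8% and 19.2% of all genes). Among them PSMB6, PSMB7 and POMP were higher with CoCl2 by 2.095 ± 0.06, 1.92 ± 0.05 and 1.66 ± 0.06. PSMB9 was lower by a log2 difference of -1.95 ± 0.16, and each of these was called by edgeR. PSMB9, whose gene overlaps TAP1 in the annotation on the other strand, was at 1.37 ± 0.530 CPM in control, 3.40 ± 0.871 CPM with CoCl2 and 13.1 ± 1.69 CPM with OD. In Caco-2 none of the 9 genes tested was called with either agent, and PSMB9 held 2 to 11 counts. Of all genes there, 9.13% were called higher and 14.2% lower with CoCl2, and 4.43% and 7.27% with OD.

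A further list held 34 interferon-stimulated genes. In HT-29, 28 of 34 tested were called higher and none lower with OD (9.5% and 7.57% of all genes), with a median of 2.12. For CoCl2, 16 were called higher and 1 lower (17.4% and 23.9% of all genes), with a median of 0.94. Examples with OD were IFIT1 (2.79 ± 0.16), ISG20 (2.58 ± 0.08) and IFIT3 (2.52 ± 0.12), antiviral effectors. With CoCl2, APOL1 (4.06 ± 0.07) and IFI44 (2.50 ± 0.16) led. Set directly, 11 of the 34 were lower with CoCl2 than with OD (19.2% of all genes) and 1, APOL1, was higher (1.83 ± 0.06), where 10.8% of all genes were. In Caco-2, 7 of 27 tested were called higher with CoCl2 (9.13% of all genes) and 3 lower, the latter near the 14.2% of all genes. Among them were IFIT2 (1.81 ± 0.17) and OAS1 (1.40 ± 0.11) upward and OAS3 (-1.27 ± 0.11) and IFI35 (-1.27 ± 0.13) downward. None was called there with OD (4.43% of all genes higher and 7.27% lower). PSMB8, PSMB9 and PSMB10 stand in this list as well as in that of the proteasome.

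Known regulators of class I genes were examined as a list of 23, of which 22 were tested in HT-29. With OD, 6 were called higher in HT-29 and none lower (9.5% and 7.57% of all genes). Among the 6 were IRF9 (1.59 ± 0.11), STAT2 (1.36 ± 0.07), IFNAR2 (1.25 ± 0.26), IRF1 (1.21 ± 0.08) and IRF2 (1.17 ± 0.07), which are signal transducers, factors and a receptor chain of interferon signalling. The receptor chain, IFNAR2, rested on few reads, with 9 to 19 counts per control library and 28 to 33 per OD library. With CoCl2, 2 were called higher and 2 lower, where 17.4% and 23.9% of all genes were. IRF9 (1.52 ± 0.12) and the NF-kB subunit RELA (1.23 ± 0.06) were called higher, and RFXAP (-3.00 ± 0.15) and NFYB (-2.05 ± 0.08), subunits of the RFX and NF-Y complexes that bind class I promoters, were called lower. IRF1 was at 0.38 ± 0.09 with CoCl2 and was not called. Calls were made with edgeR as for the members.

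In Caco-2 RFX5, the DNA-binding subunit of the RFX complex, was called lower with CoCl2 (-1.10 ± 0.11, FDR 1.01e-08) and with OD (-1.06 ± 0.11, FDR 4.03e-08, edgeR), while in HT-29 it was at -0.99 ± 0.06 and -0.40 ± 0.06 and was not called. With CoCl2 in Caco-2, RFXAP was called lower (-1.36 ± 0.25) and RELA (1.22 ± 0.08) and IFNGR1 (1.10 ± 0.08) higher. Of the 23 tested there, 2 were called higher and 2 lower with CoCl2 (9.13% and 14.2% of all genes). With OD 1 was called lower (7.27%) and none higher (4.43%). IRF1 was at 0.89 ± 0.18 with CoCl2 and 0.88 ± 0.18 with OD and was not called with either.

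Other rows of the class I region numbered 15, most of them pseudogenes, of which 9 were tested in HT-29 and 8 in Caco-2. In HT-29, CoCl2 gave 5 called higher (17.4% of all genes) and OD gave 7 (9.5%). In Caco-2 CoCl2 gave 4 (9.13%) and OD 1 (4.43%). The pseudogene HLA-H was called in HT-29 with both agents (1.31 ± 0.11 with CoCl2 and 1.38 ± 0.11 with OD) and can share reads with HLA-C.

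Of class I-like proteins and ligands of natural killer cell receptors, 11 were tested in HT-29. With CoCl2, 3 were called higher and 3 lower, near the 17.4% and 23.9% of all genes, and with OD 4 were higher and none lower (9.5% and 7.57% of all genes). ULBP2, a stress-induced ligand of the NKG2D receptor, was called higher in each contrast with control: its Caco-2 values were 1.64 ± 0.16 for CoCl2 and 1.93 ± 0.15 for OD, and its HT-29 values 2.32 ± 0.13 and 1.69 ± 0.13. MICA, another NKG2D ligand, was called with both agents in HT-29 (1.66 ± 0.06 for CoCl2, 1.32 ± 0.06 for OD). ULBP1 went down with CoCl2 in HT-29 (-2.51 ± 0.10). In Caco-2, 3 of 10 were called higher and 2 lower with CoCl2 (9.13% and 14.2% of all genes), and 2 higher with OD (4.43%). MR1, which presents microbial metabolites, was among those lower with CoCl2 (-1.46 ± 0.15).

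Class II genes were mostly too low to test. Of 22 rows, 6 were tested in HT-29 and 3 in Caco-2. In HT-29, 2 were called lower with CoCl2 (23.9% of all genes), and 2 lower and 1 higher with OD (7.57% and 9.5%). None was called in Caco-2. CIITA, the class II relative of NLRC5, did not pass in HT-29, at 0.29 ± 0.21 for CoCl2 and 0.10 ± 0.20 for OD.

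**Figure D5:**
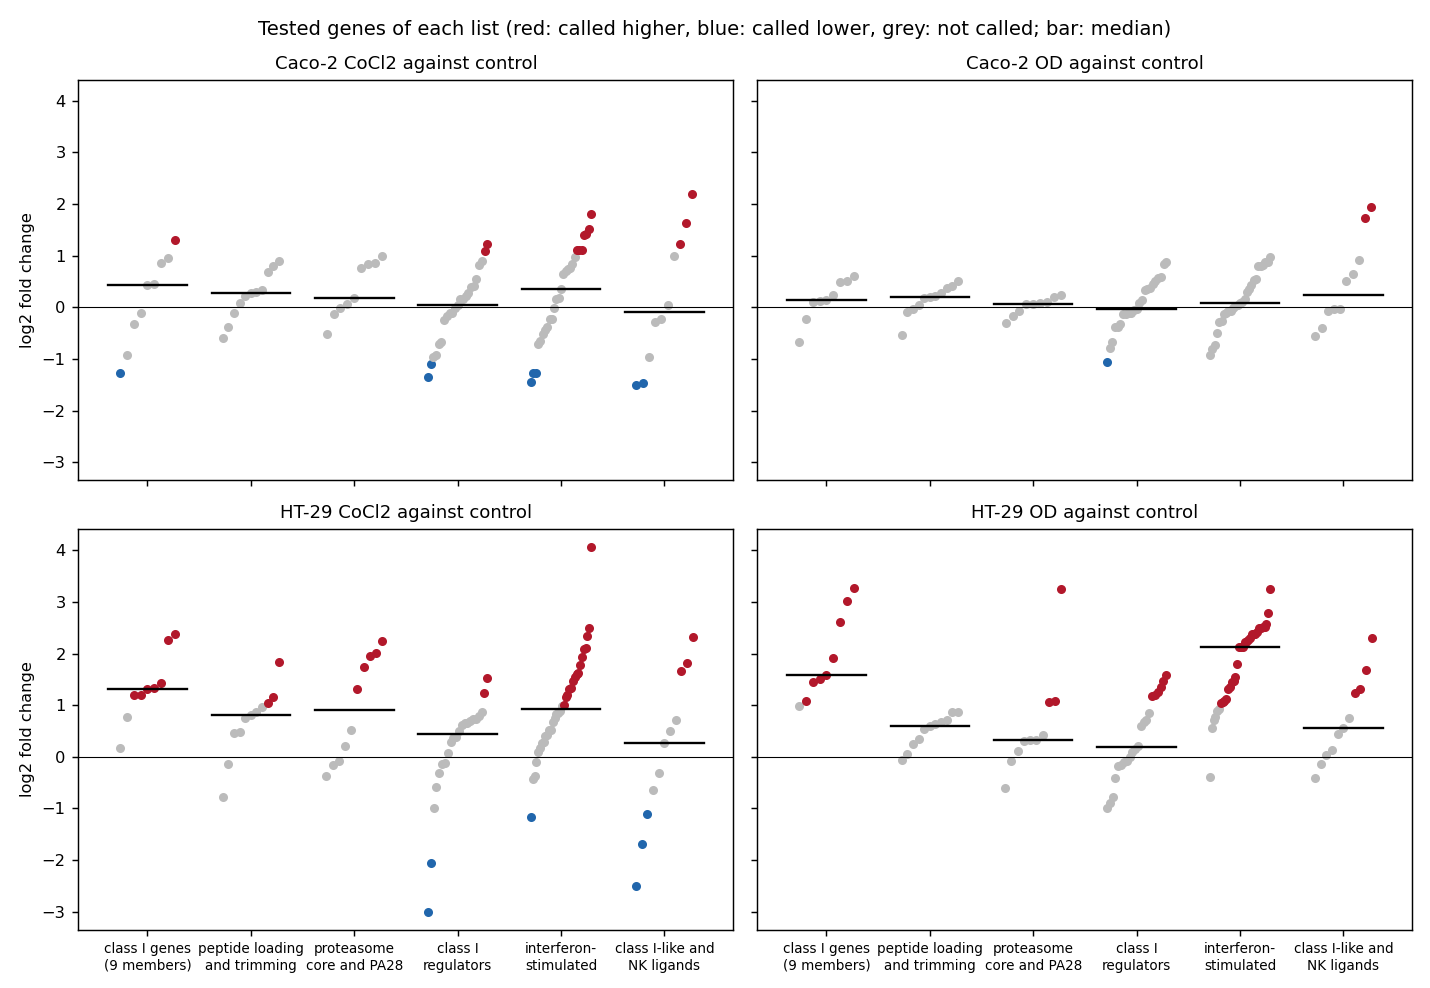
Log2 fold change of the tested genes of 6 lists in the 4 contrasts with control, sorted within each list; red points were called higher, blue lower and grey neither, and bars are medians. With OD in HT-29 the class I members (median 1.59) and the interferon-stimulated genes (median 2.12) stand above zero while the loading and proteasome lists lie nearer to it (medians 0.59 and 0.32); in Caco-2 with OD, medians of these lists lie between -0.03 and 0.24.

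The genes whose pattern was most like that of the members were sought over the 18 libraries, on log2 CPM centred within each line, among 10436 genes. These are descriptions over libraries that share their treatment, with no test. Nearest to the mean of the members were ZC3HAV1, SERINC2 and PI4KAP1 (Pearson r 0.969 each), RIPOR1 (0.967) and TRIM5 (0.966). Nearest to NLRC5 were COL1A1 and SLC25A22 (0.978 each), RAB11FIP4 (0.964), P2RX4 (0.958) and FBXO44 (0.951). Among the members TAPBP (0.918), TAP1 (0.895), TAP2 (0.878) and HLA-F (0.850) were more like NLRC5 than HLA-B (0.462), B2M (0.433), HLA-E (0.388) and HLA-C (0.387). The pooled values differ from those within Caco-2, where r with NLRC5 was -0.104 for TAP1, -0.470 for HLA-B, -0.515 for HLA-C, -0.579 for HLA-E and -0.809 for B2M. For TAPBP, HLA-F and TAP2 it was 0.363, 0.282 and 0.266. NLRC5 held 5 to 25 counts per library there. Within HT-29 r with NLRC5 was 0.990 for TAP1, 0.670 for HLA-B, 0.517 for HLA-C, 0.706 for HLA-E and 0.661 for B2M. For TAPBP, HLA-F and TAP2 it was 0.976, 0.965 and 0.953. ZC3HAV1 and the members' mean had r of 0.126 within Caco-2 and 0.990 within HT-29.

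COL1A1, a collagen gene, also stands in the list of leukocyte and stromal markers and rose with OD in HT-29 (2.01 ± 0.17, FDR 5.87e-11, edgeR). Of the 10 markers, 3 were tested in HT-29 and 1 was called higher with OD (9.5% of all genes), against 2 called lower with CoCl2 (23.9%). Their summed level was 4.76 to 5.94 CPM in control, 3.21 to 4.49 CPM with CoCl2 and 8.23 to 10.2 CPM with OD. In each group 2 or 3 of the 10 markers were at 0 in every library. Above 10 counts in every library were 3 or 4 in the Caco-2 groups and 1 or 3 in those of HT-29. PTPRC, which marks leukocytes, held 0 to 2 counts per library, while CD14 held 32 to 74 in Caco-2 and 8 to 49 in HT-29. In Caco-2 PECAM1 held 28 to 172 counts and COL1A1 202 to 405. The part of such cells in the results was not tested. The 5 enterocyte markers summed to 2910 to 4510 CPM in Caco-2 and 15.1 to 33 CPM in HT-29.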

How the data were processed

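RNA of 18 cultures was sequenced as 75-nucleotide single-end reads on an Illumina NextSeq after Illumina Stranded mRNA preparation. The authors deposited raw gene counts per library. The submitters' notes name FastQC 0.11.9, cutadapt 2.10, STAR 2.7.5b, edgeR 3.30.3 and GRCh38.p13, and the counting tool and its strand setting are not given in the sources used here. The authors also deposited log2(RPKM + 1) values, normalised within each line, from which per-length levels were taken. Values of NLRC5 and HLA-F in Caco-2, listed at 0 there, were computed from counts and the lengths behind the HT-29 values.

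Counts were filtered with filterByExpr, scaled by TMM and tested by the quasi-likelihood test of edgeR 4.0.16 in R 4.3.3, per line, with both lines in 1 fit for interactions and for the untreated lines. P-values were adjusted over all genes tested. DESeq2 1.42.0, limma 3.58.1, other scalings, filters, fold limits, a replicate block and leaving out each library were alternatives. Scripts were tested on simulated data.

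The members and lists were chosen with earlier results of these data known. Named are all 9 members, of each list at most the 4 called genes of largest change with a mean of at least 100 counts, any regulator, and the 5 genes most like NLRC5 or the members' mean. PSMB9 with CoCl2 in HT-29, HLA-F-AS1 in Caco-2, PTPRC, CD14, PECAM1 and the test and counts of COL1A1 were added after their values had been seen. Columns were assigned to samples by name. Some genes of the lists are not reported here by name.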

Additional observations from a re-analysis of the deposited data

Results flagged for a closer look

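The change with OD was called different between the lines for 7 of the 9 members, all with the larger value in HT-29, by the interaction test of edgeR over 18 libraries, as it was for 8.96% of all genes. On the log2 scale, as HT-29 less Caco-2, the difference was 3.91 for NLRC5, 2.92 for TAP1, 1.99 for HLA-F, 1.65 for TAP2, 1.42 for HLA-B, 1.35 for TAPBP and 1.33 for HLA-C. The change with CoCl2 was called different in that direction for 3 members (7.79% of all genes), by 2.48 for NLRC5, 2.26 for HLA-F and 1.41 for HLA-C. In Caco-2 the values of NLRC5 and HLA-F rest on 5 to 37 counts per library, and HT-29 and differentiated Caco-2 differ in culture state as well as in line. The contrasts with CoCl2 and OD share their control libraries.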

How the results depend on the processing

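With no fold limit, 10370, 8084, 13097 and 10876 genes were called for Caco-2 with CoCl2 and OD and HT-29 with CoCl2 and OD, 7957 and 12286 between the agents in Caco-2 and HT-29, 8916 and 7682 for the CoCl2 and OD interactions and 14175 between the untreated lines. In the order given, limma on log2(RPKM + 1) gave 1098, 381, 2520, 744, 341, 1455, 1304 and 795, and with 0.1 added in place of 1 it gave 2116, 878, 3893, 1295, 848, 2599, 2097 and 1355. It was not run between untreated lines, which were normalised separately. With no fold limit the members called were 6 and 3 (Caco-2, CoCl2 and OD), 5 and 9 (between agents, Caco-2 and HT-29), 7 (CoCl2 interaction) and 7 (untreated lines). By limma they were 1 (Caco-2, CoCl2), 0 (between agents, Caco-2), 4 (HT-29, CoCl2), 2 (between agents, HT-29) and 1 (CoCl2 interaction), and with 0.1 added 1, 0 and 1 in Caco-2 with CoCl2, between its agents and for that interaction, where NLRC5 and HLA-F could not be tested. On library sizes alone 2 members were called with CoCl2 in HT-29, and signs turned for HLA-E (-0.00822), TAP1 (-0.0594) and TAPBP (-0.0242) under OD in Caco-2, TAP2 (-0.459) under CoCl2 in HT-29, HLA-B (-0.149), HLA-E (-0.372) and B2M (-0.282) between agents in HT-29 and HLA-E in the CoCl2 interaction (-0.0719). HLA-E between untreated lines turned to -0.00738 with DESeq2, -0.00766 with its size factors in edgeR and -0.0262 with the replicate block. Leaving out 1 library gave 1 to 3 Caco-2 members called for CoCl2 and 0 to 1 for OD, and signs turned within -0.129 to 0.0102 for B2M and -0.197 to 0.00882 for TAP2 between agents in Caco-2 and -0.125 to 0.276 for TAP1 with OD in Caco-2. Causes were not tested. Deviations of same-numbered replicates from their group means correlated with r of -0.0832 to 0.0942 in Caco-2 and -0.047 to 0.0297 in HT-29, so over all genes the numbers were not taken to pair samples, although HT-29 replicate 2 was highest for 7 to 9 of the 9 members in each group, and the block changed no call of a member and moved no count of calls by over 1.5 times. Depth limits NLRC5 and HLA-F in Caco-2.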

Other observations

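Among the HT-29 libraries replicate 2 held the highest CPM of its group for 7 of the 9 members in control, 9 of 9 with CoCl2 and 8 of 9 with OD. The labels give no batch for these libraries.

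HLA-F and its antisense gene went in opposite directions in Caco-2 under CoCl2, where HLA-F-AS1 was called higher and HLA-F was lower by a log2 of 0.93 on 7 to 16 counts, while in HT-29 both rose with each agent. HLA-F-AS1 rose there by 3.22 ± 0.15 with CoCl2 and 3.16 ± 0.14 with OD, and HLA-F by 1.43 ± 0.16 and 2.62 ± 0.13.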
